A study of Homo sapiens with 6 samples.

Results

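The probe sets described here measured small nucleolar RNAs (snoRNAs) in a HEK293 line carrying BAHD1 and in its control line. A probe set is the group of array probes that is summarised to 1 value. A probe set was included when every symbol in its annotation starts with SNORD, SNORA or SCARNA, and 221 of the 21062 probe sets that name a gene met this rule, out of 28869 on the array. Total RNA was hybridised to Affymetrix HuGene ST arrays, of which 3 were labelled HEK-BAHD1 and 3 HEK-CT. HEK293 is a cell line derived from human embryonic kidney. Both lines were pools of stable transfectants with an insert at a single genomic recombination site, selected with hygromycin and driven by the cytomegalovirus promoter. The HEK-BAHD1 line carried BAHD1, which codes for a protein of silenced chromatin, and the HEK-CT line a β-galactosidase insert placed out of frame according to the labels, or an empty vector according to the paper. The 3 arrays of a label came from separate flasks of 1 pool, so p-values rest on the spread among flasks of a single pool. The supplement places HEK-BAHD1 replicate 2 at a later passage than replicate 1 and the control. It does not mention a replicate 3, and whether its replicate numbers are those of the arrays is not stated.

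BAHD1 itself went against the labels, with a log2 signal of 6.75, 7.0 and 6.76 on the arrays labelled HEK-BAHD1, against 10.06, 9.81 and 9.93 on those labelled HEK-CT (log2 fold change -3.10, standard error 0.0925, limma adjusted p = 3.12e-05). Every direction is therefore that of the array labels, and which label is right was not settled here. According to the supplement, the BAHD1 line was examined by immunofluorescence and immunoblot for the protein, which concerns the line and not these arrays. Values of 3 arrays stand in the order of replicates 1, 2 and 3 throughout. A probe set was called at a limma adjusted p under 0.05 over all 21062 probe sets and a difference of group medians above 0.2. Of 8 markers of HEK293 cells, all were measured, with mean signals between 4.87 and 11.6. NEFM and NEFL, neurofilament chains, were higher on the arrays labelled HEK-BAHD1 and VIM, vimentin, was lower. None of the 14 measured markers of fibroblasts, leukocytes, hepatocytes or endothelial cells was called, and their mean signals lay between 2.98 and 6.61. Array medians over all probe sets ranged from 5.46 to 5.56.

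SnoRNAs are short, stable RNAs of the nucleolus that guide chemical modification of other RNAs by base pairing. C/D box snoRNAs (SNORD symbols) guide ribose methylation through the methyltransferase fibrillarin, and H/ACA box snoRNAs (SNORA symbols) guide the conversion of uridine to pseudouridine through dyskerin. Small Cajal body RNAs (SCARNA symbols) do the same for the small nuclear RNAs of the spliceosome. Most human snoRNAs are cut out of introns of a host gene, so that host and snoRNA share 1 transcript at the start, whereas a few, such as U3 and U13, have their own promoter. Many hosts code for ribosomal proteins or for no protein at all, as in the small nucleolar RNA host genes (SNHG). A probe set on this array cannot separate the mature snoRNA from the host intron that contains it.

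A known feature of many host genes is a start with a tract of pyrimidines, the 5′ terminal oligopyrimidine tract of genes of the translation machinery. The first bases of hosts are therefore shown for 9 of the 18 hosts that have a start sequence and hold a snoRNA that passed the test for a fall. They were picked to show starts with and without the tract, so the tract is more frequent among them than among the 18. The sequences are from RefSeq on GRCh38.p14. Each window covers 15 bases before and 15 bases from the annotated start, and capitals mark a C within 5 bases of that start followed by at least 4 pyrimidines, with the whole tract, read on the strand of the gene. The windows lie at chr6:31834901-31834930 (SNHG32, + strand), chr6:85678719-85678748 (SNHG5, - strand), chr20:49278627-49278656 (ZFAS1, + strand), chr19:49487593-49487622 (RPL13A, + strand), chr6:132814554-132814583 (RPS12, + strand), chr11:75399503-75399532 (RPS3, + strand), chr2:231464470-231464499 (NCL, - strand), chr11:93661667-93661696 (CEP295, + strand) and chr14:103334222-103334251 (EIF5, + strand). The first 6 hold such a tract and the other 3 do not, whereas 8 of the 18 do.
SNHG32: ctcgccattttagttCTTTTTgcgaagtgg
SNHG5: gctgcgcacttcggtCTTTTacgtcggcct
ZFAS1: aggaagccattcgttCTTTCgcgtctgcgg
RPL13A: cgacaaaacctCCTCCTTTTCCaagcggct
RPS12: gcgtgcggatgaggCCTCTTTCCCTgccgc
RPS3: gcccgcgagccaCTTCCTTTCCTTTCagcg
NCL: tcagtctttcgcctcagtctcgagctctcg
CEP295: ggctctcccgcaggcgcagaaacggctgct
EIF5: gcggcggcgttgttcagtcagagcgagaac

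The tract was found in 37 of the 88 host genes with a RefSeq start sequence (42.0%), against 7408 of all 35116 start sequences (21.1%). A match describes these letters only, and says nothing of how the gene is regulated.

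The 221 snoRNA probe sets fell into 80 for C/D box snoRNAs, 66 for H/ACA box snoRNAs, 19 for Cajal body RNAs, 26 for the SNORD116 copies, 23 for the SNORD115 copies and 6 for SNORD113 and SNORD114 copies. One further probe set, SNORA33 with SNORD101, named both box types. A single snoRNA was named by 198 probe sets and several by 23. Identical values on all 6 arrays were held by 21 probe sets in 9 groups, among them 5 probe sets for U3 (SNORD3 copies), which leaves 209 distinct measurements. A further 53 probe sets that list a snoRNA together with another gene lay outside the rule.

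The snoRNAs that passed the test were mostly lower on the arrays labelled HEK-BAHD1. Of the 221 snoRNA probe sets, 23 were called lower (10.4%), 2 were called higher (0.905%) and 196 were not called. Over all probe sets tested, 6.39% were called lower, 6.79% higher and 13.2% in either direction. The median log2 fold change was -0.14 over the snoRNA probe sets and 0.0033 over all probe sets tested. The mean was lower on the arrays labelled HEK-BAHD1 in 158 snoRNA probe sets and higher in 63. All 3 arrays labelled HEK-BAHD1 lay below all 3 labelled HEK-CT in 47 snoRNA probe sets (21.3%), against 16.9% of all probe sets, and above them in 9 (4.07%), against 16.7%. With identical measurements counted once, 23 were lower and 2 higher of 209.

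These counts depended on single arrays. The arrays were set side by side through the median deviation of the 221 probe sets from their means over the 6 arrays. HEK-CT replicate 2 (-0.032) lay among the arrays labelled HEK-BAHD1 (-0.017, -0.038 and -0.10). HEK-CT replicates 1 and 3 (0.10 and 0.12) lay above them. The median signal over the 221 probe sets was 4.74, 4.83 and 4.63 on the arrays labelled HEK-BAHD1, against 4.99, 4.93 and 5.19 on those labelled HEK-CT. By that median, all 3 arrays labelled HEK-CT lay above the others. Without HEK-CT replicate 2, 33 probe sets were called lower (14.9%, with 4.0% of all probe sets). Without HEK-CT replicate 1 or replicate 3, 8 (3.62%) and 7 (3.17%) were called lower, with 3.80% and 2.76% of all probe sets, so that the share of snoRNAs was then near that of all probe sets. Without HEK-BAHD1 replicates 1, 2 or 3, the counts were 13, 11 and 9, with 5.88%, 4.98% and 4.07% of snoRNAs against 3.07%, 4.45% and 3.07% of all probe sets. The median over the snoRNAs stayed below 0 in each of these 6 fits, between -0.18 and -0.078. What sets the snoRNA signal of HEK-CT replicate 2 apart was not tested.

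**Figure D1:**
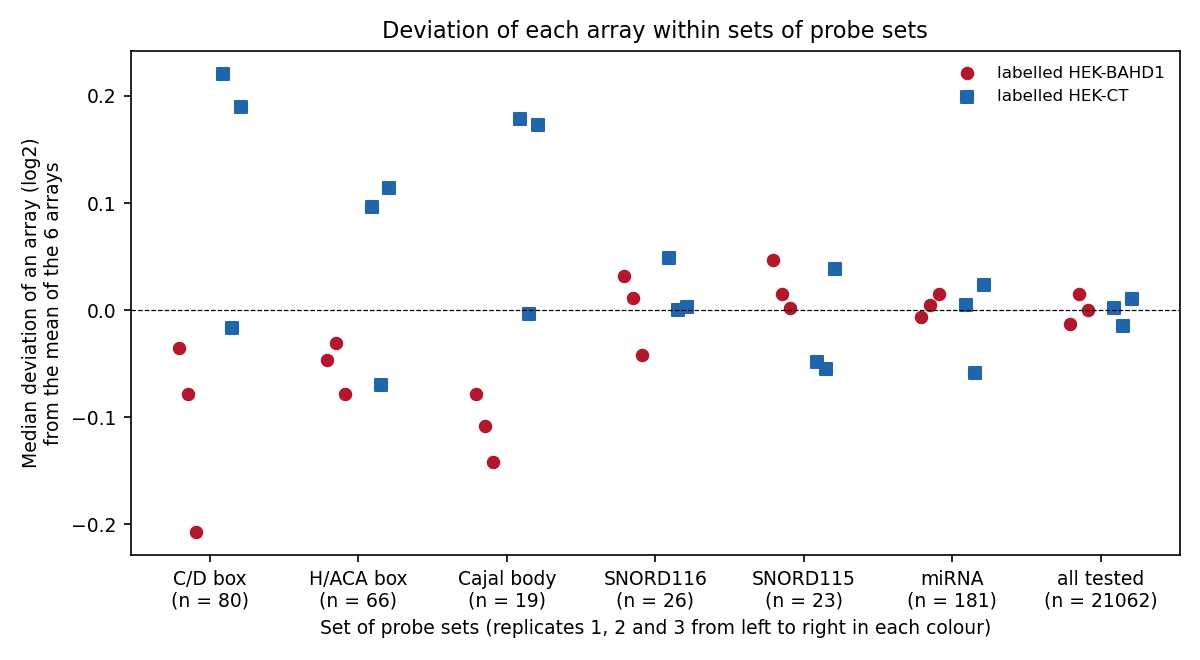
Median, over the probe sets of each set, of the deviation of an array from the mean of the 6 arrays (vertical axis, log2 units), with replicates 1, 2 and 3 from left to right in circles (labelled HEK-BAHD1) and squares (labelled HEK-CT). For C/D box snoRNAs the deviations were -0.035, -0.078 and -0.21 on arrays labelled HEK-BAHD1, against 0.22, -0.017 and 0.19 on those labelled HEK-CT, with HEK-CT replicate 2 below the others of its label, while all tested probe sets lay within 0.015 of 0.

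The C/D box snoRNAs, which guide ribose methylation, had a median of -0.25 over 80 probe sets. This was the lowest of the classes with all arrays, but the Cajal body median was lower without HEK-CT replicate 1 (-0.22 against -0.19), without HEK-BAHD1 replicate 3 (-0.25 against -0.21) and without the dimmest 30% of probe sets (-0.32 against -0.27). Of the 80 C/D box probe sets, 13 were called lower (16.2%), none was called higher and 67 were not called. Over all probe sets, 6.39% were lower and 6.79% higher. The mean was lower in 70 of the 80. At an unadjusted p under 0.05, limma gave 35 lower and 2 higher of the 80, with 3118 lower and 3045 higher of all 21062 probe sets. The class median was 5.96, 6.0 and 5.63 on the arrays labelled HEK-BAHD1, against 6.34, 5.96 and 6.34 on those labelled HEK-CT. The 2 groups overlapped through HEK-CT replicate 2. Without that array, 22 C/D box probe sets were called lower (27.5%, with 4.0% of all probe sets). Without HEK-CT replicate 1, 3 were (3.75%, with 3.80%), and without HEK-CT replicate 3, 4 were (5.0%, with 2.76%). Without HEK-BAHD1 replicates 1, 2 or 3, the counts were 5, 6 and 3 (6.25%, 7.5% and 3.75%, with 3.07%, 4.45% and 3.07%).

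SNORD52, which guides a methylation of the large ribosomal subunit RNA and sits in SNHG32, had the largest fall. Its log2 signal was 6.16, 6.65 and 5.77 on the arrays labelled HEK-BAHD1, against 7.41, 6.70 and 7.33 on those labelled HEK-CT (log2 fold change -0.95, standard error 0.25, limma adjusted p = 0.0448). The groups did not overlap, but HEK-BAHD1 replicate 2 and HEK-CT replicate 2 lay only just apart, and the call was lost in 4 of the 6 fits that leave out an array. SNORD50B, in SNHG5, had 5.66, 5.42 and 5.15 on the arrays labelled HEK-BAHD1, against 6.16, 6.10 and 6.10 on those labelled HEK-CT (log2 fold change -0.71, standard error 0.12, adjusted p = 0.00976). It was called in all 6 of those fits. SNORD50A, from another intron of the same host, had a log2 fold change of -0.23 and was not called (adjusted p = 0.112).

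SNORD82, which guides the small ribosomal subunit RNA, had 2.90, 2.99 and 2.72 on the arrays labelled HEK-BAHD1, against 3.57, 3.18 and 3.53 on those labelled HEK-CT (log2 fold change -0.56, adjusted p = 0.022), all near the low end of the signal range of the array. Its host NCL, which codes for nucleolin, a major nucleolar protein, was not called (log2 fold change 0.010). SNORD12C, in ZFAS1, had 5.14, 4.98 and 4.74 on the arrays labelled HEK-BAHD1, against 5.62, 5.55 and 5.23 on those labelled HEK-CT (log2 fold change -0.51, adjusted p = 0.0403). ZFAS1 fell as well (log2 fold change -0.27, adjusted p = 0.016). SNORD8, which guides the U6 small nuclear RNA, had 6.34, 6.02 and 6.30 on the arrays labelled HEK-BAHD1, against 6.94, 6.53 and 6.66 on those labelled HEK-CT (log2 fold change -0.49, adjusted p = 0.0397). Its host CHD8, a chromatin remodeller, fell by a like size (log2 fold change -0.57, adjusted p = 0.00126).

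SNORD34, in the ribosomal protein gene RPL13A, had 7.23, 7.22 and 7.01 on the arrays labelled HEK-BAHD1, against 7.63, 7.42 and 7.79 on those labelled HEK-CT (log2 fold change -0.46, adjusted p = 0.0288). The other C/D box snoRNAs called lower were SNORD21, SNORD15A, SNORD55, SNORD75, SNORD28, SNORD117 and SNORD79, with log2 fold changes between -0.44 and -0.34. SNORD28 and SNORD55, like SNORD50B, were called in all 6 fits that leave out an array. SNORD28, which guides the small ribosomal subunit RNA and sits in SNHG1, had 8.97, 8.99 and 9.05 on the arrays labelled HEK-BAHD1, against 9.38, 9.30 and 9.45 on those labelled HEK-CT (log2 fold change -0.37, standard error 0.060, adjusted p = 0.00885). Calls of SNORD21, SNORD15A, SNORD117, SNORD79, SNORD34 and SNORD8 were each kept in 1 of those 6 fits.

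**Figure D2:**
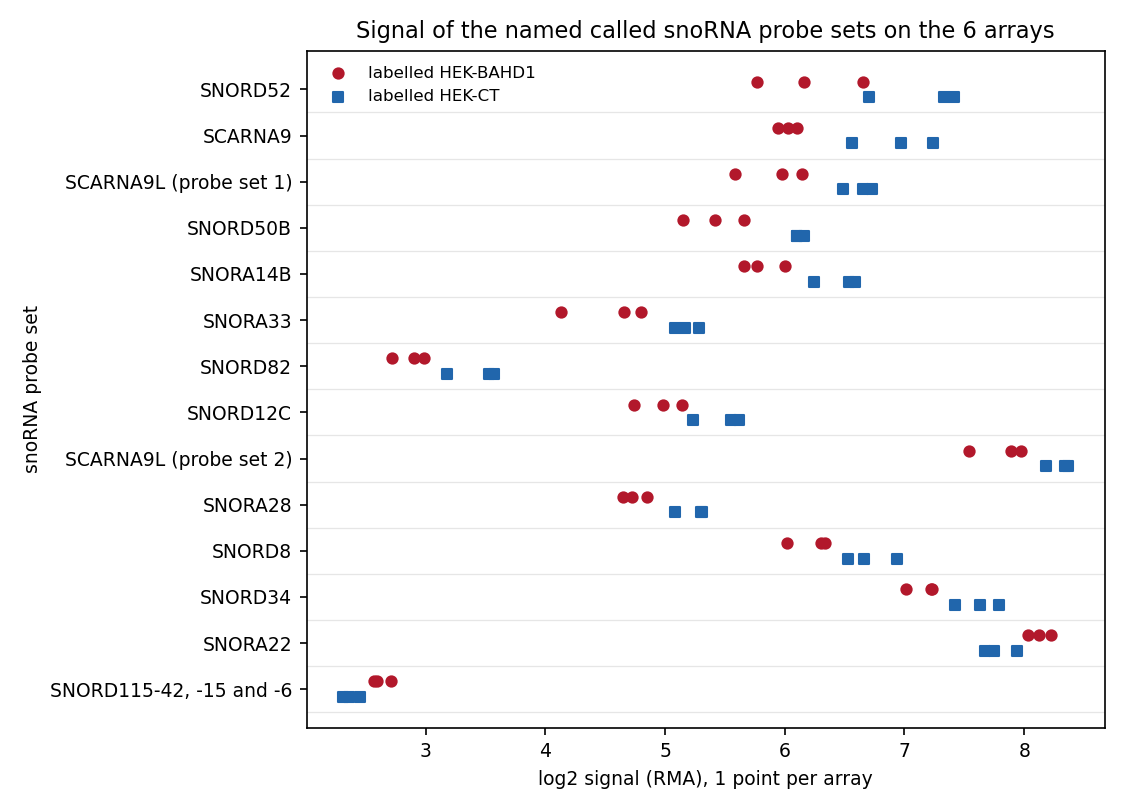
Log2 RMA signal (horizontal axis) of the 12 called snoRNA probe sets with the largest falls and the 2 called higher (rows), with 1 point for each array, circles for HEK-BAHD1 and squares for HEK-CT as labelled. In each row the 3 circles and the 3 squares do not overlap, and for SNORD52 the nearest circle (6.65) and square (6.70) almost touch.

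The C/D box snoRNAs of highest signal were not called. SNORD33, which guides the small ribosomal subunit RNA and lies in RPL13A like SNORD34, had 10.98, 10.89 and 11.11 on the arrays labelled HEK-BAHD1, against 11.19, 10.81 and 10.97 on those labelled HEK-CT (log2 fold change 0.0033, 95% interval of limma -0.24 to 0.25). SNORD57, in NOP56, had a log2 fold change of -0.19 (adjusted p = 0.276). U13 (SNORD13), which takes part in the maturation of the small ribosomal subunit RNA and is transcribed from its own promoter, had 10.17, 9.84 and 10.01 on the arrays labelled HEK-BAHD1, against 9.80, 9.36 and 9.46 on those labelled HEK-CT. Its groups did not overlap, but the adjusted p was 0.0506 (log2 fold change 0.47, standard error 0.13), and it was not called. The probe set of its copy SNORD13P3 had a log2 fold change of 0.45 (adjusted p = 0.0761), and cross-hybridisation of the near-identical U13 cannot be told apart from its own signal. The 2 probe sets were the only C/D box ones with arrays labelled HEK-BAHD1 all above those labelled HEK-CT. U3, which also has its own promoter and is required for cleavage of the ribosomal precursor RNA, had a log2 fold change of -0.27 on its 5 identical probe sets (adjusted p = 0.356) and was not called.

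The H/ACA box snoRNAs, which guide pseudouridine formation, had a median of -0.10 over 66 probe sets, with 6 called lower (9.09%), 1 called higher (1.52%) and 59 not called. Over all probe sets 6.39% were lower. The class share was 18.2% (8.66% of all probe sets) with centred arrays, 15.2% (8.14%) with a trend in the variance and 3.03% (2.76%) without HEK-CT replicate 3. The class median was 5.04, 5.05 and 5.07 on the arrays labelled HEK-BAHD1, against 5.33, 5.23 and 5.33 on those labelled HEK-CT. These medians did not overlap. The median deviations from the mean of the 6 arrays did, with -0.047, -0.031 and -0.078 on the arrays labelled HEK-BAHD1, against 0.097, -0.070 and 0.11 on those labelled HEK-CT, through HEK-CT replicate 2.

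SNORA14B had 5.77, 6.0 and 5.66 on the arrays labelled HEK-BAHD1, against 6.54, 6.24 and 6.59 on those labelled HEK-CT (log2 fold change -0.65, standard error 0.12, limma adjusted p = 0.0132). Its relative SNORA14A, in another host, had a log2 fold change of 0.10 and was not called. SNORA33, which sits in RPS12, had 4.66, 4.80 and 4.13 on the arrays labelled HEK-BAHD1, against 5.17, 5.08 and 5.28 on those labelled HEK-CT (log2 fold change -0.65, adjusted p = 0.0381). The SNORA33 call was kept in 2 of the 6 fits that leave out an array. A second probe set that lists SNORA33 with SNORD101 had overlapping groups (log2 fold change -0.30, adjusted p = 0.213). Another, which lists SNORA33 with RPS12 and lay outside the rule, also had overlapping groups (log2 fold change -0.033, adjusted p = 0.736).

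SNORA28, a guide for the small ribosomal subunit RNA in EIF5, had 4.72, 4.65 and 4.85 on the arrays labelled HEK-BAHD1, against 5.08, 5.31 and 5.30 on those labelled HEK-CT (log2 fold change -0.49, adjusted p = 0.0109). SNORA14B and SNORA28 were called in all 6 fits that leave out an array. SNORA6, SNORA80E and SNORA2A were also lower, with log2 fold changes of -0.37, -0.35 and -0.33, and each kept its call in 1 of those fits. SNORA2A had a mean signal of 3.16, near the low end of the signal range of the array.

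SNORA22 was the one H/ACA box snoRNA called higher. It had 8.22, 8.12 and 8.03 on the arrays labelled HEK-BAHD1, against 7.75, 7.94 and 7.67 on those labelled HEK-CT (log2 fold change 0.34, standard error 0.085, adjusted p = 0.0401). The call was kept in 1 of the 6 fits that leave out an array, and it was lost when arrays were centred on their medians. The H/ACA box snoRNAs of highest signal, SNORA68, SNORA71C and SNORA21, had log2 fold changes of 0.26, 0.20 and -0.35 and were not called.

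The Cajal body RNAs, which guide modification of spliceosomal RNAs, had a median of -0.20 over 19 probe sets, with 4 called lower (21.1%, with 6.39% of all probe sets), none higher and 15 not called. Without HEK-CT replicate 3, 1 was called lower (5.26%, with 2.76% of all probe sets), and 2 were (10.5%) when HEK-CT replicate 1 (3.80% of all) or replicate 2 of HEK-BAHD1 (4.45% of all) was left out. The class median was 6.14, 6.03 and 6.14 on the arrays labelled HEK-BAHD1, against 7.11, 6.56 and 6.65 on those labelled HEK-CT, and the groups did not overlap. Of the 4 called, 3 measured SCARNA9 or its copy SCARNA9L.

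SCARNA9, which guides methylation of the U2 small nuclear RNA and lies in CEP295, had 6.03, 5.94 and 6.10 on the arrays labelled HEK-BAHD1, against 7.24, 6.56 and 6.97 on those labelled HEK-CT (log2 fold change -0.90, standard error 0.15, limma adjusted p = 0.0109). It was called in all 6 fits that leave out an array. The second SCARNA9 probe set had 9.48, 9.01 and 8.58 on the arrays labelled HEK-BAHD1, against 9.63, 9.51 and 9.73 on those labelled HEK-CT, without overlap but not called (log2 fold change -0.60, adjusted p = 0.0901).

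SCARNA9L lies in EIF1AX on chromosome X. Its first probe set had 5.58, 5.98 and 6.14 on the arrays labelled HEK-BAHD1, against 6.73, 6.49 and 6.65 on those labelled HEK-CT (log2 fold change -0.72, adjusted p = 0.0165). The second probe set had 7.97, 7.89 and 7.54 on the arrays labelled HEK-BAHD1, against 8.18, 8.34 and 8.37 on those labelled HEK-CT (log2 fold change -0.50, adjusted p = 0.0303). The calls of the first and second SCARNA9L probe sets were kept in 4 and 3 of the 6 fits that leave out an array. All 4 probe sets of this pair were thus without overlap and lower in their mean. As SCARNA9L is a copy of SCARNA9, the 4 are not independent and which of the genes was measured is uncertain.

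SCARNA10, a guide for the U5 small nuclear RNA in NCAPD2, was also lower (log2 fold change -0.42, adjusted p = 0.0457). Its call was kept in 1 of the 6 fits that leave out an array. SCARNA17, the Cajal body RNA of highest signal, was not called in either of its 2 probe sets. The brighter one had 11.32, 11.28 and 11.23 on the arrays labelled HEK-BAHD1, against 11.68, 11.40 and 11.59 on those labelled HEK-CT (log2 fold change -0.28, adjusted p = 0.0555).

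**Figure D3:**
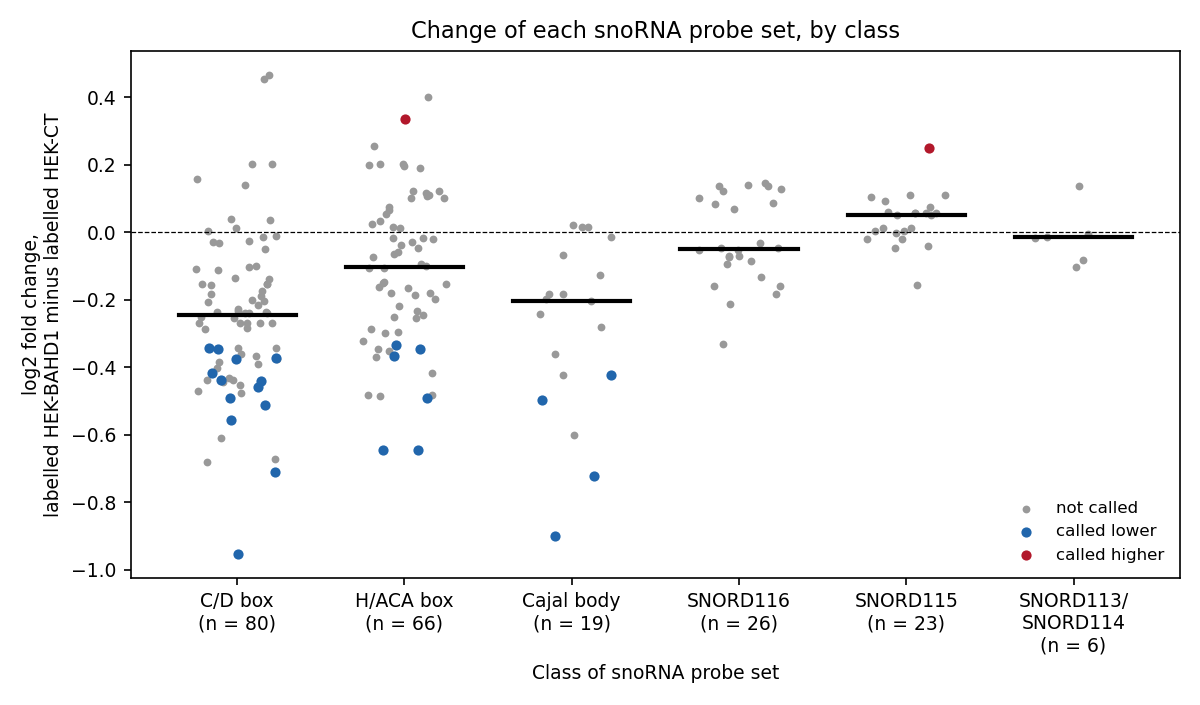
Log2 fold change of each snoRNA probe set (vertical axis, with positive values for a higher mean on arrays labelled HEK-BAHD1) by class (horizontal axis, with the number of probe sets), with calls in colour and the class median as a bar. The medians were -0.25 for C/D box, -0.10 for H/ACA box and -0.20 for Cajal body probe sets, and those of SNORD115 and SNORD116 lay close to 0, with single probe sets between -0.33 and 0.25; the probe set naming both box types is not drawn.

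The SNORD116 and SNORD115 copies lie in long tandem arrays inside SNHG14 in the imprinted region of the Prader-Willi syndrome, and are known mainly from neurons. Both had signals at the low end of the array. The median probe set was at 2.80 for SNORD116 and 2.53 for SNORD115, against 6.44 over all probe sets tested, where a fall would be hard to detect. None of the 26 SNORD116 probe sets was called (median log2 fold change -0.050). At an unadjusted p under 0.05 limma gave 0 lower and 1 higher, with 3118 lower and 3045 higher of all 21062 probe sets. The brightest, for SNORD116-6 and SNORD116-2, had 4.98, 4.60 and 4.56 on the arrays labelled HEK-BAHD1, against 4.69, 4.47 and 4.57 on those labelled HEK-CT, with overlap (log2 fold change 0.14, adjusted p = 0.499). SNORD116-15 had 3.68, 4.0 and 3.50 on the arrays labelled HEK-BAHD1, against 3.69, 4.21 and 4.27 on those labelled HEK-CT (log2 fold change -0.33, adjusted p = 0.266). The probe set for SNORD116-9, SNORD116-8, SNORD116-7, SNORD116-5 and SNORD116-3 had a log2 fold change of -0.047.

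Of the 23 SNORD115 probe sets, none was called lower and 1, which names SNORD115-42, SNORD115-15 and SNORD115-6, was called higher (median of the class 0.050). It had 2.59, 2.71 and 2.57 on the arrays labelled HEK-BAHD1, against 2.45, 2.36 and 2.31 on those labelled HEK-CT (log2 fold change 0.25, adjusted p = 0.0433). The call was lost in each of the 6 fits that leave out an array. The SNORD115 probe sets of highest signal, SNORD115-24, SNORD115-32 and SNORD115-34, had log2 fold changes of 0.013, 0.013 and 0.11 and overlapping groups.

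The probe set for SNURF and SNRPN, protein-coding genes next to these arrays, had 3.22, 3.44 and 3.32 on the arrays labelled HEK-BAHD1, against 3.21, 3.33 and 3.19 on those labelled HEK-CT, and was not called. Its signal was also near the low end of the array, where a fall would be hard to detect. The 6 probe sets of SNORD113 and SNORD114, which lie in MEG8 in the imprinted region of chromosome 14, had log2 fold changes between -0.10 and 0.14 and none was called. Those of highest signal were SNORD114-26, SNORD114-3 and SNORD113-3, at -0.10, -0.013 and -0.083. MEG3 and RTL1 of the same region were not called, with log2 fold changes of -0.18 and -0.23.

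Outside these repeated copies, 166 probe sets remained, of which 23 were lower, 1 was higher and 142 were not called, with a median of -0.20. The 53 probe sets that list a snoRNA with another gene, most often its host, had 9 lower, none higher and a median of -0.21. Over all probe sets tested, 6.39% were called lower and 6.79% higher. The 166 and the 53 probe sets each had a larger share called lower and a smaller share called higher. Other kinds of short RNA were set beside the snoRNAs, as a description. Of 27 probe sets with RNU symbols, mostly spliceosomal RNAs, 1 (3.7%) was called lower (RNU4ATAC, log2 fold change -0.25) and none higher. Their median was 0.20, or 0.10 over their 19 distinct measurements. Of 181 miRNA probe sets, none was lower and MIR125B1, MIR128-2 and MIR219A2 were higher (1.66%), with a median of 0.010. For RNU and miRNA probe sets, the shares called lower and called higher were each below those of all probe sets tested.

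The host genes had a median closer to 0 than the snoRNAs they contain. A host probe set could be read for 96 snoRNA probe sets in 70 hosts, and 8 hosts were called lower (11.4%, with 6.39% of all probe sets), 1 higher (1.43%, with 6.79%) and 61 were not called. The median log2 fold change was -0.18 over the 96 snoRNA probe sets and -0.048 over the 70 hosts, each host counted once. Pair by pair, the snoRNA was below its host in 67 of 96 pairs, with a median difference of -0.14. Across these pairs, which share the same 6 arrays and in part the same host, the fold changes of snoRNA and host had a Pearson correlation of 0.16 and a Spearman correlation of 0.13.

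Hosts coding for ribosomal proteins, singled out after their values were seen, gave 19 pairs in 12 hosts. None of these hosts was called, and their snoRNAs lay below the host in all 19 pairs, by a median of -0.33. RPS3, a protein of the small ribosomal subunit, had a log2 fold change of 0.0033, and its SNORD15A was lower at -0.44 (adjusted p = 0.049). RPL5, a protein of the large subunit, was at 0.13 and its SNORD21 was lower at -0.44 (adjusted p = 0.0236). The difference within a pair was not tested.

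Of all 70 measured hosts 11.4% were called lower, with 6.39% of all probe sets. The 12 snoRNA probe sets called lower with a measured host lay in 11 hosts, of which 4 were lower themselves. These were CHD8 and ZFAS1, described with their snoRNAs, and KHDC4 and KANSL2. KHDC4, an RNA-binding protein that holds SNORA80E, had a log2 fold change of -0.51 (adjusted p = 0.00291). KANSL2, a subunit of a histone acetyltransferase complex that holds SNORA2A, had -0.35 (adjusted p = 0.00885). SNORA2B, also in KANSL2 (-0.017), and SCARNA4, also in KHDC4 (-0.20), were not called. The hosts SNHG17 (-0.35), URB1 (-0.35), PPP2R5A (-0.26) and RABGGTB (-0.24) were lower too, but none of their snoRNAs was called. SNORA71A, SNORA71C, SNORA80A and SNORA16B lay between 0.053 and 0.20. SNORD45A, SNORD45B and SNORD45C of RABGGTB lay between -0.67 and -0.11. The start tract in 8 of the 18 hosts of snoRNAs called lower (44.4%) was a share close to the 42.0% of all hosts. CEP295, EIF1AX, EIF5, NCAPD2, NCL, RPL5 and RPS3 were not called, with log2 fold changes between -0.25 and 0.13.

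**Figure D4:**
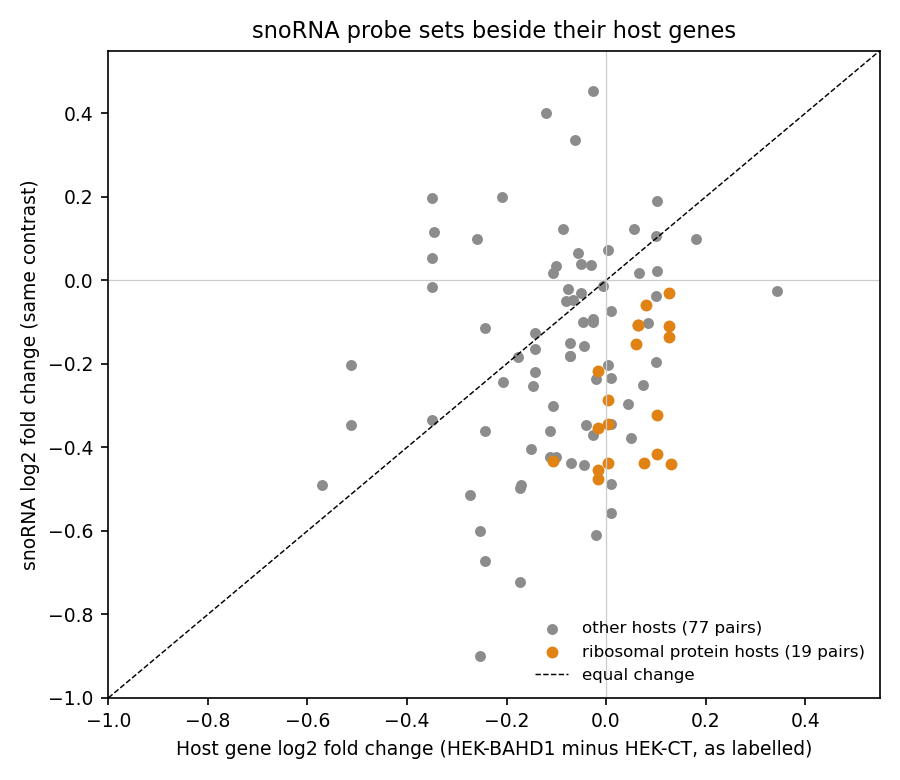
Log2 fold change of each snoRNA probe set (vertical axis) against that of its host gene (horizontal axis), where negative values are lower on arrays labelled HEK-BAHD1, with 1 point for each of 96 pairs and a dashed line of equal change. All 19 pairs with ribosomal protein hosts lie below the line, and 67 of the 96 pairs do.

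Among snoRNAs cut from introns of 1 host transcript, some were called and others were not. Of the 4 in RPL13A, SNORD34 was lower at -0.46, while SNORD32A, SNORD33 and SNORD35A were not called and lay between -0.20 and 0.0033.

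GAS5, a non-coding host whose transcript decays when translation proceeds, held 7 of the snoRNA probe sets. Their log2 fold changes lay between -0.39 and -0.15, and SNORD75 (adjusted p = 0.0213) and SNORD79 (adjusted p = 0.0499) were called lower. These host transcripts had no probe set of their own that was free of snoRNAs, and differences between snoRNAs of 1 host were not tested.

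Of 34 measured genes for proteins that bind, assemble or mature snoRNAs, 4 were called lower (11.8%, with 6.39% of all probe sets). None was called higher (6.79% of all probe sets). In either direction, 13.2% of all probe sets were called. The C/D box core had 2 of 4 proteins measured, the methyltransferase FBL (log2 fold change 0.037) and NOP58 (-0.17), and neither was called. The H/ACA core had all 4 measured, the pseudouridine synthase DKC1 (-0.010), NHP2 (0.19), NOP10 (0.033) and GAR1 (-0.060), and none was called. NHP2 was the one with groups that did not overlap (adjusted p = 0.0624).

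Of 13 measured assembly factors, ZNHIT3 (log2 fold change -0.20, adjusted p = 0.0475) and NVL (-0.26, adjusted p = 0.0274) were lower and none was higher. Of 8 measured genes of the Cajal body and nucleolus, GEMIN2, a partner of the survival motor neuron protein, was lower (-0.30, adjusted p = 0.0422), and COIL (-0.12), the coilin of Cajal bodies, and WRAP53 (-0.067), which brings RNAs to them, were not called. Of 7 measured genes for the maturation of snoRNA ends, DIS3, an exonuclease of the RNA exosome, was lower (-0.31, adjusted p = 0.013) and none was higher. In bulk RNA, fewer cells with a transcript and less of it per cell cannot be told apart.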

How the data were processed

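The deposited log2 values, with 2 decimals, were made by the authors with RMA, a method that subtracts background, brings the arrays to a common distribution and combines the probes of a probe set. The version of RMA and the build of the array annotation are not given in the sources used here. RNA was purified on silica columns, amplified as cDNA and labelled with biotin, per the labels. The recovery of short RNAs by these steps was not measured.

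The 21062 probe sets naming a gene entered a limma fit (version 3.58.1, R 4.3.3) with no block, and p-values were adjusted by Benjamini-Hochberg. The members and lists were chosen with earlier results of these data known. Named were the 12 largest falls and all rises among calls without overlap, the 3 of highest signal per class, their hosts, hosts of at least 4 snoRNAs (1 of which is not reported here), up to 4 called members of each list and defining core proteins. A host is the smallest gene whose span contains the snoRNA in GRCh38.p14. That table gives no strand, so the strand was not used. The LPE test named in the paper was written anew with 100 bins and a 10-df spline. Alternatives were 2 scalings, all probe sets, a filter on dim ones, variance models, the LPE test, no threshold on medians, a replicate block, leaving out arrays, probe sets with 1 snoRNA and, chosen after seeing the data, identical probe sets once. The methods were tested on simulated data. Signal depends on the probes as well as the RNA, so an order of signals between probe sets says nothing of RNA amounts. DNA methylation and protein binding were not analysed here.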

Additional observations from a re-analysis of the deposited data

How the results depend on the processing

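The class medians and the difference from hosts kept their sign for C/D box, H/ACA box and Cajal body probe sets under every alternative. The counts of snoRNA probe sets moved. Against 23 lower and 2 higher, centring the arrays on their medians gave 36 and 0 (8.66% of all probe sets lower, 4.99% higher), testing all 28869 probe sets 13 and 0 (3.58% of all lower), leaving out the dimmest 30% of probe sets 23 and 4 of the 111 that remained (20.7% lower, 10.7% of all), eBayes with a trend 37 and 6 (8.14% of all lower), the LPE test 41 and 5 (7.41% of all lower), and only probe sets with 1 snoRNA 23 and 1. The replicate block gave 16 lower and 2 higher (3.94% of all lower), with 14 of the 25 calls shared. Same-numbered arrays deviated together with correlations of -0.077, 0.074 and -0.038, so the numbers were not taken to pair the samples. Leaving out 1 array gave 7 to 33 lower and 0 to 1 higher, and 6 of the 25 calls were kept in all 6 such fits (SCARNA9, SNORD50B, SNORA14B, SNORA28, SNORD55 and SNORD28). The H/ACA box median was -0.15 without the dimmest 30% and -0.16 to -0.071 without 1 array.

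Uncalled values near 0 changed sign. With centred arrays FBL was -0.0033, NCL -0.030, NOP10 -0.0067, RPS3 -0.037, SNORD115-24 and SNORD115-32 -0.027 and SNORD33 -0.037. With quantile normalization DKC1 was 0.043 and RPS3 -0.022. Leaving out 1 array gave -0.032 to 0.018 for DKC1, -0.0017 to 0.023 for NCL, -0.0017 to 0.060 for NOP10, -0.013 to 0.017 for RPS3, -0.080 to 0.070 for SNORD114-3, -0.065 to 0.12 for SNORD115-24, -0.087 to 0.10 for SNORD115-32, -0.11 to 0.0050 for the SNORD116-9 probe set and -0.087 to 0.10 for SNORD33. The causes were not tested. With 3 arrays per label, a low signal and shared sequence limit what the SNORD115 and SNORD116 probe sets can show.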
